A study of Mus musculus with 4 samples.

Results

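The EGF receptor family and its ligands were followed here as 8 genes of the 55450 in the matrix, found by their symbols. These were 5 ligands (Areg, Ereg, Hbegf, Tgfa and Btc) and 3 receptors (Egfr, Erbb2 and Erbb3). The ligands are made as proteins anchored in the cell membrane and are cut free by proteases, or act on a neighbouring cell while still anchored. All 5 bind the receptor Egfr, whose kinase then switches on the ERK pathway. Erbb2 has no known ligand of its own and works as a partner of the other receptors, and Erbb3 binds neuregulins and has a weak kinase. In tumours the family is known for driving growth of epithelial cells and for signals between tumour cells and stroma.

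Female BALB/c mice of 6 to 8 weeks carried tumours of 4T1, a line of mouse breast carcinoma cells, of which 1000000 had been implanted in the right flank. Every mouse received near-infrared light (NIR, 980 nm) daily from day 8 to day 10, for 5 min each time, and tumours were taken on day 13. Mice had been injected on day 7 with PBS or with TIOs, macrophages killed in liquid nitrogen and loaded with nanoparticles that carry the photosensitizer Ce6 and RSL3, an inhibitor of Gpx4. The labels put 2 samples in PBS+NIR and 1 in TIOs+NIR, and 1 sample stayed unassigned because its title and its protocol disagree. No control without light was analysed here, and the sources used here do not say how many animals went into a sample.

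The barcodes carried 4 suffixes, called libraries 1 to 4, and no source used here links a library to a sample. No treatment was therefore compared, the matrix counted as 1 pooled sample, and no p-value was computed. Each library is given apart, and its treatment is unknown. Of 33064 barcodes, 32133 held at least 300 genes and at most 15% mitochondrial UMIs (unique molecular identifiers, each 1 counted RNA molecule). Libraries held 69255999 to 108646352 UMIs, with a median of 2642 to 11698 per kept barcode, and 95 barcode sequences occurred in more than 1 library. Marker genes placed 29095 barcodes in 1 of 15 classes, and no member of the family was among the markers. Most markers were highest in their own class, with the lowest count for cDC1 (3 of 6 markers) and with the tumour list at 6 of 7, the exception being Cdh1. The same markers had placed the barcodes, so this is no independent check of the classes. The cells had been sorted for CD45 by the study's methods, yet 4234 barcodes were tumour or epithelial and 4397 were fibroblasts. The tumour or epithelial class, called tumour cells here, numbered 3948 in library 1, 285 in library 2, 0 in library 3 and 1 in library 4. The gate did not separate tumour cells from other epithelial cells. The 83 keratinocyte-like cells were all in library 1, so that class cannot be told apart from its library.

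A level is given as CPM: a gene's UMIs, summed over the cells of a class, for every 1000000 UMIs in those cells. Intervals are exact 95% Poisson intervals for levels and exact (Clopper-Pearson) 95% intervals for shares, and cover counting error only. For a gene with 0 UMIs, the limit given is the level that 3 UMIs would make. A level within a library is given for classes with at least 20 cells there. The summed tumour markers stood at 7793 CPM in tumour cells of library 1 and at 3567 CPM in those of library 2. Whether this class holds the same kind of cell in both libraries was not tested.

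Ereg, Areg and Btc lie on chromosome 5 (GRCm38, GENCODE vM21 coordinates). Ereg spans 91074622 to 91093646 on the plus strand and Areg 91139599 to 91148432 on the plus strand, 46.0 kb further on. Btc spans 91357261 to 91402994 on the minus strand, and a further ligand gene, Epgn, lies 39.4 kb before Ereg. Tgfa is on chromosome 6 (86195223 to 86275719, plus strand). Egfr (16752203 to 16918158) and Erbb2 (98412470 to 98437716) are on the plus strand of chromosome 11, and Erbb3 is on the minus strand of chromosome 10 (128567523 to 128589652). No member shares an exon on its own strand with another annotated gene.

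The RefSeq promoter table (GRCm38.p6) held 5 of the 8 members. The 250 bases before the start are shown for Areg and Tgfa, ligands that were high in the same tumour class, and for Egfr, whose highest level was in fibroblasts. They lie at chr5:91139349-91139598, chr6:86194972-86195221 and chr11:16751953-16752202, all on the plus strand. Capitals mark matches on either strand to the cAMP response element (CRE) TGACGTCA, the GC box GGGCGG or the TATA box TATAAA. The AP-1 motif TGANTCA was searched too and matched none of the 3.
Areg: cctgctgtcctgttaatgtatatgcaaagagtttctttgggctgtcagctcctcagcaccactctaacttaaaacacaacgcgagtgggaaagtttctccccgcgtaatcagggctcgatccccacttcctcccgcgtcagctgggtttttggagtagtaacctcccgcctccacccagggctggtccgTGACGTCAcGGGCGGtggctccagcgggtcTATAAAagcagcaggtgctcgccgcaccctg
Tgfa: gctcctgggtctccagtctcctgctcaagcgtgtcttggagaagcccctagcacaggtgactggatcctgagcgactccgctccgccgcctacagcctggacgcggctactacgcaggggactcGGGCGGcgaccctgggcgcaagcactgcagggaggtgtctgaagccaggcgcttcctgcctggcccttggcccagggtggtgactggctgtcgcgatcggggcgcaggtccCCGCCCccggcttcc
Egfr: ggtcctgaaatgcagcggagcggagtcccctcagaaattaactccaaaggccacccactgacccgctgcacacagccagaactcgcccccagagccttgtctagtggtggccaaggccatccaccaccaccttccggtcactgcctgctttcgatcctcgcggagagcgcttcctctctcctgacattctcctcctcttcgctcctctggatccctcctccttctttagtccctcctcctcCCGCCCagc

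The Areg window held a CRE that begins 61 bases before the start, a GC box at 52 bases and a TATA box at 31 bases, with no overlap between them. The Tgfa window held 2 GC boxes and the Egfr window 1 GC box, and neither held the CRE or the TATA box. Among all 32851 promoters of the table, 1.55% held the CRE, 12.4% the TATA box, 32.7% the GC box and 6.75% the AP-1 motif in the same window. The windows of Btc and Erbb2 matched none of the 4 motifs. These are matches of letters only.

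Members fell into different classes. Hbegf, Areg and Tgfa were high in tumour and keratinocyte-like cells, whereas Egfr and Ereg were highest in fibroblasts. Over the pooled classes, the leading class was at least 2-fold above the next for 2 of 8 members, Ereg (84.3 CPM in fibroblasts against 42.1 CPM in keratinocyte-like cells, at the limit) and Egfr (119.9 against 27.5 CPM in keratinocyte-like cells, 4.36-fold). The lead of Egfr was smaller with Leiden clusters in place of gates (116 against 50.7 CPM in a pericyte or smooth muscle cluster). Of the 272 cells of that cluster, 56.25% were gated as pericytes or smooth muscle cells. Among 12385 genes with at least 800 UMIs, a leading class at least 2-fold above the next was found for 17%. Without library 3 it held for 1 member (Egfr), and without library 1, and so without keratinocyte-like cells, for 5 members (Areg, Ereg, Hbegf, Tgfa and Egfr). The 17% was computed with all libraries and classes, and no share over all genes was computed without a library.

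**Figure D1:**
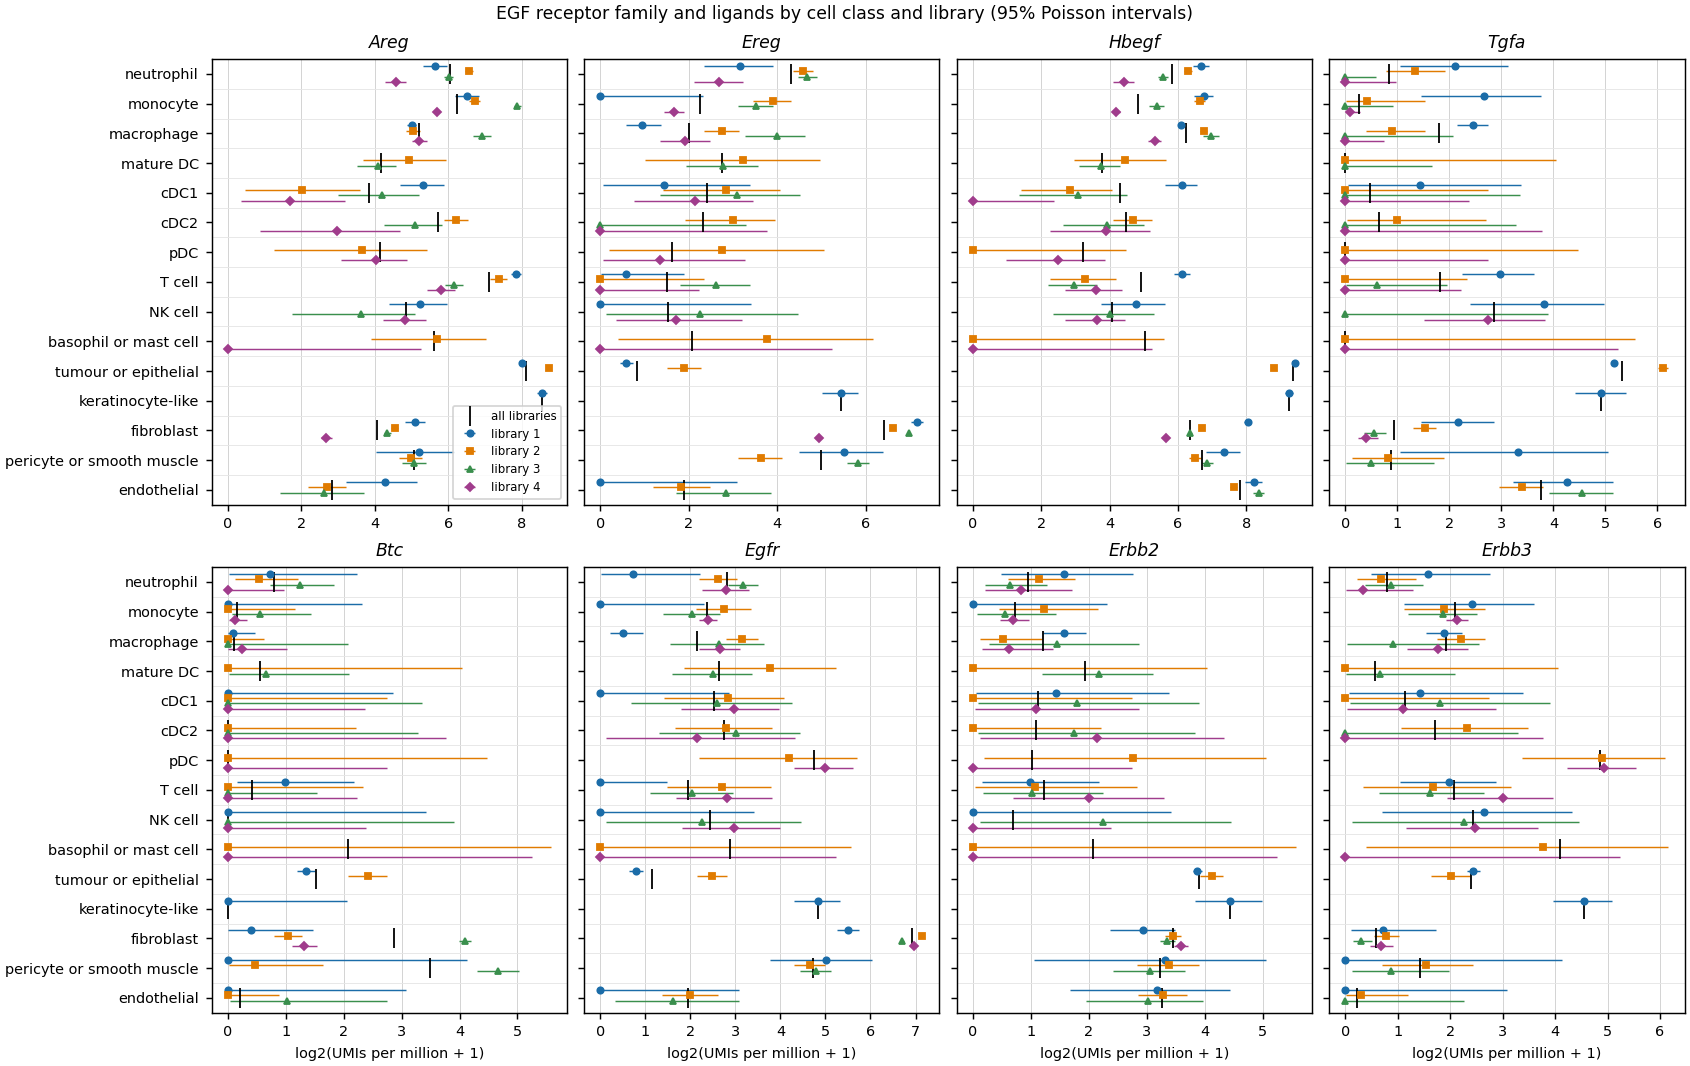
Level of each of the 8 genes, as log2(CPM + 1) on the x axis, in 15 cell classes on the y axis; coloured points are libraries with at least 20 cells of the class, with 95% Poisson intervals, and black ticks are all libraries together. Egfr stands at 119.9 CPM in fibroblasts and 1.22 CPM in tumour cells, while Hbegf stands at 659.1 CPM in tumour cells.

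Hbegf encodes heparin-binding EGF-like growth factor. Tumour cells held 60741 of its 80789 UMIs in kept barcodes (75.2%). Its level in tumour cells was 689.8 CPM in library 1 and 444.9 CPM in library 2. Its level was 603.3 CPM in keratinocyte-like cells, and the pooled intervals of both classes did not overlap (654 to 664 and 559 to 650 CPM). Within library 1, which held all keratinocyte-like cells, tumour cells were the higher. Their interval began at 684.1 CPM, and that of keratinocyte-like cells ended at 649.6 CPM. With equal weight for libraries 1 and 2 in the tumour class, and also after thinning, the keratinocyte-like class was the higher. After thinning the intervals overlapped (553 to 947 CPM in keratinocyte-like and 637 to 687 CPM in tumour cells). Library 1 tumour cells were thus above library 2 tumour cells beyond counting error. Endothelial cells were next, with Hbegf at 295.6 CPM in library 1, 196.9 CPM in library 2 and 329.2 CPM in library 3. Library 2 had the lowest of the 3 endothelial values, and the intervals of libraries 1 and 3 overlapped. In fibroblasts the 4 libraries stood at 261.4, 103 (library 2), 80.3 and 49.5 CPM, and in macrophages at 67.4, 106 (library 2), 124 and 39.0 CPM. Library 4 was the lowest in both classes, and library 1 was the highest in fibroblasts only.

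Areg encodes amphiregulin, a ligand also known from regulatory T cells and type 2 innate lymphoid cells (ILC2). It was highest in keratinocyte-like cells at 374.7 CPM (interval 340.3 to 411.6), followed by tumour cells. Tumour cells had 255.4 CPM in library 1 and 427.8 CPM in library 2, and held 69.7% of all Areg UMIs. Library 2 was the higher for Areg and the lower for Hbegf. T cells followed, with 226.7 CPM in library 1, 164 CPM in library 2, 70.1 CPM in library 3 and 55.2 CPM in library 4. Libraries 1 and 2 were above libraries 3 and 4 in T cells, and the intervals of libraries 3 and 4 overlapped. Monocytes had 90.4, 104 (library 2), 234.3 and 50.6 CPM. Library 3 was the highest there, and no tumour cells were found in that library. In library 3 the leading class for Areg was the monocyte class, and in library 4 T cells and monocytes led with overlapping intervals.

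Tgfa encodes transforming growth factor alpha, a classical ligand of Egfr in epithelia. Tumour cells held 3587 of its 4061 UMIs (88.3%). Its level in tumour cells was 34.7 CPM in library 1 and 68.1 CPM in library 2, and keratinocyte-like cells had 29.2 CPM. The pooled interval of the keratinocyte-like class (20.2 to 40.8 CPM) overlapped that of the tumour class (37.7 to 40.2 CPM). Endothelial cells had 18.2, 9.46 (library 2) and 22.6 CPM in libraries 1 to 3, the highest of the other classes. Fibroblasts stood at 0.911 CPM over all libraries. Mature DC (dendritic cells), pDC (plasmacytoid dendritic cells) and basophils or mast cells held 0 Tgfa UMIs, which allows up to 1.42, 3.12 and 9.58 CPM.

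Ereg encodes epiregulin, a ligand linked to wound repair and inflammation. Fibroblasts held 10824 of its 12132 UMIs (89.2%). Its level in fibroblasts was 142 CPM in library 1, 96.3 CPM in library 2, 124 CPM in library 3 and 29.6 CPM in library 4. Library 4 was the lowest, and no interval of 1 library overlapped that of another. Keratinocyte-like cells had 42.1 CPM and pericytes or smooth muscle cells 30.6 CPM, while tumour cells had 0.770 CPM. Fibroblasts did not lead after each cell was thinned to 1000 UMIs (90.7 CPM, against 102.6 CPM in keratinocyte-like cells). The keratinocyte-like value rested on 8 UMIs, and its interval (44.3 to 202 CPM) overlapped that of fibroblasts (81.8 to 100 CPM). Nor did fibroblasts lead when Leiden clusters replaced the gates (74.5 CPM, against 183.9 CPM in a pericyte or smooth muscle cluster). Of the 272 cells of that cluster, 56.25% were gated to that class. Neutrophils had 7.92, 23.1 (library 2), 24.6 and 5.43 CPM. Libraries 2 and 3 were above libraries 1 and 4 in neutrophils.

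Btc encodes betacellulin. It had 1166 UMIs in all kept barcodes, and 701 of its 807 fibroblast UMIs came from library 3. Fibroblasts had 0.318 CPM in library 1, 1.04 CPM in library 2, 16.1 CPM in library 3 and 1.5 CPM in library 4. Pericytes or smooth muscle cells had 24.5 CPM in library 3 and at most 1 UMI in libraries 1 and 2. Library 3 stood apart in both stromal classes, but in pericytes its 60 UMIs lay in 10 of 75 cells and 2 cells held 50% of them. With Leiden clusters in place of gates, Btc stood at 82.4 CPM in the pericyte or smooth muscle cluster and 2.74 CPM in fibroblasts, against 10.2 and 6.28 CPM with the gates. Of the 272 cells of the pericyte or smooth muscle cluster, 56.25% were gated to that class. After each cell was thinned to 1000 UMIs, 2.02% of library 3 fibroblasts held a Btc UMI, against 0.0598% in library 2 and 0% in libraries 1 and 4. Tumour cells had 1.54 CPM in library 1 and 4.33 CPM in library 2, the highest class in each of these libraries, although in library 1 the interval overlapped that of T cells. The 83 keratinocyte-like cells held 0 Btc UMIs, which allows up to 2.58 CPM.

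Egfr encodes the receptor that all 5 ligands bind. Fibroblasts held 15403 of its 16440 UMIs (93.7%). Its level in fibroblasts was 44.5 CPM in library 1, 139.5 CPM in library 2, 103 CPM in library 3 and 124.6 CPM in library 4. Library 1 was the lowest, and there the interval overlapped those of pericytes or smooth muscle cells and of keratinocyte-like cells. Thinned to 1000 UMIs, 4.79% of fibroblasts in library 1, 12.4% in library 2, 10.9% in library 3 and 12.7% in library 4 held an Egfr UMI. Before thinning, 77.5% of all fibroblasts did (median 26666 UMIs a cell), against 1.57% of T cells (median 4020 UMIs) and 2.62% of macrophages (median 7070 UMIs). In tumour cells Egfr stood at 0.732 CPM in library 1 and 4.59 CPM in library 2. Keratinocyte-like cells (27.5 CPM), pDC (26.0 CPM) and pericytes or smooth muscle cells (25.4 CPM) followed fibroblasts, with overlapping intervals. The pDC value rested on 25 UMIs, of which 20 were in library 4 in 16 cells.

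Erbb2, the partner receptor, had a flatter profile over the non-immune classes. Keratinocyte-like cells had 20.6 CPM, tumour cells 14.0 CPM, fibroblasts 10.0 CPM, endothelial cells 8.65 CPM and pericytes or smooth muscle cells 8.35 CPM. The intervals of keratinocyte-like (13.2 to 30.7 CPM) and tumour cells (13.2 to 14.8 CPM) overlapped, as did those of fibroblasts, endothelial cells and pericytes. No immune class exceeded 3.19 CPM. In tumour cells it stood at 13.6 CPM in library 1 and 16.4 CPM in library 2, with overlapping intervals.

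Erbb3, a receptor of neuregulins, was rare, with 866 UMIs. pDC had 28.0 CPM (interval 18.5 to 40.8, 27 UMIs in 147 cells), and the 2 libraries with at least 20 pDC had 28.9 CPM (library 2) and 29.3 CPM (library 4). Keratinocyte-like cells had 22.3 CPM with an overlapping interval. After thinning they had 64.1 CPM (20.8 to 149.6, 5 UMIs) and pDC 20.7 CPM (4.27 to 60.5, 3 UMIs), again with overlapping intervals. Tumour cells had 4.43 CPM in library 1 and 3.03 CPM in library 2, and fibroblasts had 0.506 CPM over all libraries.

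In 3 of 16 sets of a member and a class with at least 20 cells in every library, 1 library lay far from the other 3 (Areg in macrophages, and Hbegf in cDC1 and in T cells). Of 44313 such sets over the 12385 genes, 7.06% did so.

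Tumour cells and fibroblasts could be set side by side within libraries 1 and 2. Egfr was 60.8-fold higher in fibroblasts in library 1 (interval 44.6 to 83.9) and 30.4-fold higher in library 2 (23.2 to 40.6). Ereg was 287-fold higher in fibroblasts in library 1 (207 to 407) and 35.8-fold higher in library 2 (25.2 to 52.8). The other way round, Areg was 7.72-fold higher in tumour cells in library 1 and 19.2-fold higher in library 2. Hbegf was 2.64-fold and 4.30-fold higher in tumour cells, and Tgfa 9.93-fold and 36.2-fold. Btc was 4.84-fold higher in tumour cells in library 1, where the interval of the ratio included 1 (0.852 to 193), and 4.15-fold higher in library 2. Erbb3 was 6.96-fold (1.91 to 57.7) and 4.30-fold (2.53 to 7.39) higher in tumour cells. Erbb2 differed less, 2.04-fold in library 1 and 1.64-fold in library 2.

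Of the 8 members, 2 (Ereg and Egfr) were at least 2-fold above the tumour level in fibroblasts of both libraries, against 13.6% of the 12385 genes. The reverse held for 5 members (Areg, Hbegf, Tgfa, Btc and Erbb3), against 8.03% of the genes. For Btc and Erbb3 this rested on very low levels in fibroblasts of library 1 (0.318 and 0.636 CPM). The interval of the Btc ratio included 1 there. Over all libraries Btc went the other way, with 6.28 CPM in fibroblasts and 1.89 CPM in tumour cells. For Egfr, pooling the libraries gave a log2 ratio of fibroblast to tumour of 6.62, and a mean with equal weight for each library gave 5.27.

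**Figure D2:**
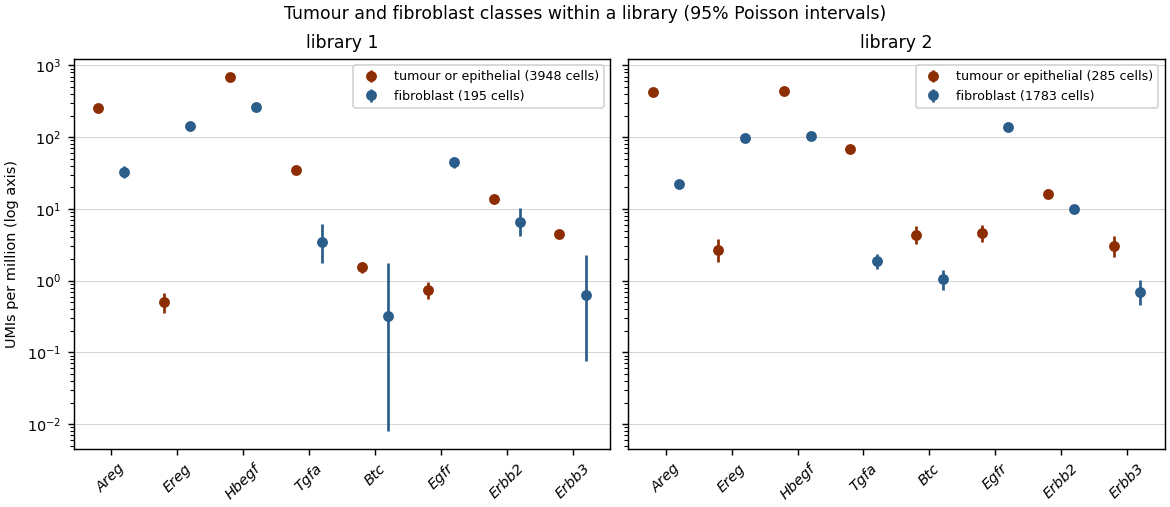
Level of each of the 8 genes in tumour cells (brown) and fibroblasts (blue) within library 1 (left) and library 2 (right), in CPM on a log axis with 95% Poisson intervals. The tumour point is above the fibroblast point for Areg, Hbegf, Tgfa, Btc, Erbb2 and Erbb3 in both libraries and below it for Ereg and Egfr.

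Free RNA from broken cells gives UMIs in classes that do not make a gene, so members were set beside the summed tumour or fibroblast markers. In library 1 the tumour markers stood at 6.28% to 16.2% of their tumour level in the other classes. In fibroblasts of library 1 these markers stood at 9.68%. Tgfa stood at 10.1% there, Areg at 12.9%, Erbb3 at 14.4%, Btc at 20.7% and Hbegf at 37.9%. The Erbb3 and Btc shares rested on fibroblast levels of only 0.636 and 0.318 CPM. Fibroblasts of library 2 had the markers at 1.91%. Tgfa stood at 2.76% there, Areg at 5.21%, Erbb3 at 23.2%, Hbegf at 23.3% and Btc at 24.1%. Areg in T cells of library 1 stood at 88.8% of its tumour level, beside 10.3% for the markers, whereas Hbegf in the same T cells stood at 9.94%. Neutrophils of library 1 had tumour markers at 11.2%, Areg at 19.1% and Hbegf at 14.7%. In library 2 the markers in neutrophils stood at 1.44%, Areg at 21.9% and Hbegf at 17.3%, while Tgfa stood at 2.23%. Monocytes of library 2 had Areg at 24.3% and Hbegf at 22.1%, beside 2.55% for the markers.

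Against the fibroblast level, Egfr in tumour cells stood at 1.64% in library 1 and 3.29% in library 2, beside fibroblast markers at 0.310% and 2.22%. Egfr in neutrophils stood at 1.48% to 7.76% over the 4 libraries, beside markers at 0.495% to 5.39%. In library 4, Egfr in pDC stood at 24.8%, beside markers at 4.78%. Ereg in neutrophils stood at 24.0%, 19.9% and 18.4% in libraries 2, 3 and 4, beside markers at 3.48%, 4.69% and 5.39%. How much of each level came from free RNA or from doublets was not tested.

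**Figure D3:**
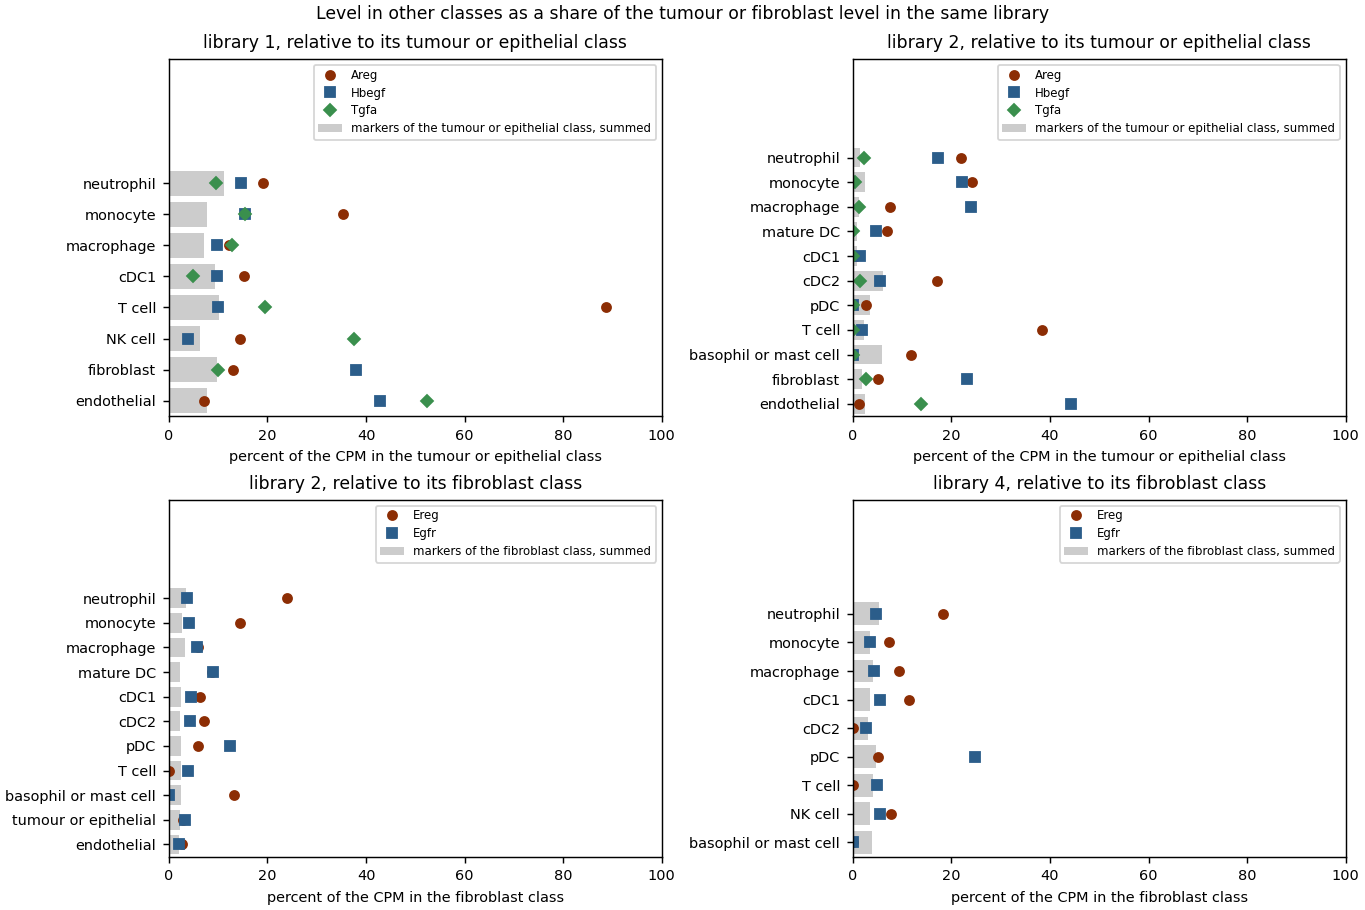
Level in other classes as a percent of the level in the tumour class (top, libraries 1 and 2) or the fibroblast class (bottom, libraries 2 and 4) of the same library; grey bars are the summed markers of that class and points are single genes. Areg in T cells lies at 88.8% in library 1 and 38.4% in library 2, beyond the bars at 10.3% and 2.36%. The keratinocyte-like and pericyte or smooth muscle classes are not drawn, and keratinocyte-like Areg in library 1 stood at 146.7%.

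Areg levels differed between T cell subsets, and a few cells held much of the total. T cells with a Foxp3 UMI, the marker of regulatory T cells, had 840.3 CPM in library 1 (31 cells), 272 CPM in library 2 (23 cells) and 146 CPM in library 3 (79 cells). Foxp3-negative CD4 T cells had 188 CPM, 42.8 CPM and 18.2 CPM in these libraries and 29.8 CPM in library 4. The Foxp3-positive cells were the higher in each of the 3 libraries, with intervals that did not overlap. These intervals do not cover the spread between cells. In library 2, 1 of 23 Foxp3-positive cells held 40 of 99 Areg UMIs, and 1 of 41 Foxp3-negative CD4 T cells held 11 of 19. T cells without a Foxp3, Cd4, Cd8a or Cd8b1 UMI had 604.0 CPM in library 1, 95.7 CPM in library 3 and 147 CPM in library 4. This subset is set by absent UMIs, so it can hold cells whose Foxp3, Cd4 or Cd8 RNA was not counted. Its 302 cells held 1067621 UMIs of all genes, against 2135348 in the 352 Foxp3-negative CD4 T cells. CD8 T cells, of which 247 of 270 were in library 1, had 115 CPM there and held 175 of the 466 Areg UMIs of T cells in that library. In library 1, 8 of 393 T cells held 50% of the Areg UMIs, and 87 held any.

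Markers of ILC2 were read in the same subsets, since these cells can carry T cell genes. Of the 6 markers, Gata3, Il5 and Rora were highest in the T cell class, Il1rl1 and Il13 in basophils or mast cells, and Il17rb in pDC. Over all libraries, Foxp3-negative CD4 T cells were above the subset without Cd4 and Cd8 UMIs for Gata3 (379 against 196 CPM) and Il1rl1 (154 against 109 CPM). The same held for Il13 (308 against 73.1 CPM) and, with overlapping intervals, for Il5 (31.4 against 22.5 CPM) and Il17rb (5.62 against 2.81 CPM). Rora went the other way (499 against 666 CPM). Il5 and Il13 rested on few cells. In Foxp3-negative CD4 T cells, 3 of 352 cells held the 67 Il5 UMIs, 55 of them in 1 cell. The 658 Il13 UMIs there lay in 39 cells, with 133 in 1 cell. In the other subset, 3 of 302 cells held the 24 Il5 UMIs and 10 held the 78 Il13 UMIs. In the subset without Cd4 and Cd8 UMIs, Il1rl1, the receptor of IL-33, stood at 9.96 CPM in library 1, 138 CPM in library 3 and 77.2 CPM in library 4. The library 1 value rested on 3 Il1rl1 UMIs in 79 cells. Areg of this subset was highest in library 1, where 1 cell held 55 of the 182 Areg UMIs. Any link between Areg and these markers was not tested. Gata3 in the subset stood at 119 CPM in library 1, 184 CPM in library 3 and 273.6 CPM in library 4. Il13 stood at 89.6 CPM in library 1, where a single cell held all 27 UMIs, at 79.1 CPM in library 3 and at 14.0 CPM in library 4. Rora stood at 295.4 CPM, 925.3 CPM and 434.9 CPM. In library 1, Il5 and Il17rb had 0 UMIs in the subset, which allows up to 9.96 CPM. In Foxp3-positive T cells, Il1rl1 stood at 126 CPM, 148 CPM and 415.5 CPM in libraries 1 to 3.

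Among monocytes, cells without a Chil3 UMI had more Areg than cells with one. The values without Chil3 were 93.9 CPM in library 1, 115 CPM in library 2, 308 CPM in library 3 and 67.7 CPM in library 4. With Chil3 they were 88.9 CPM in library 2, 139.9 CPM in library 3 and 39.6 CPM in library 4. The intervals overlapped in library 2 and not in libraries 3 and 4. In library 3, 9 of 618 monocytes held 50% of the 987 Areg UMIs, and in library 1 a single cell held 50% of 84.

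**Figure D4:**
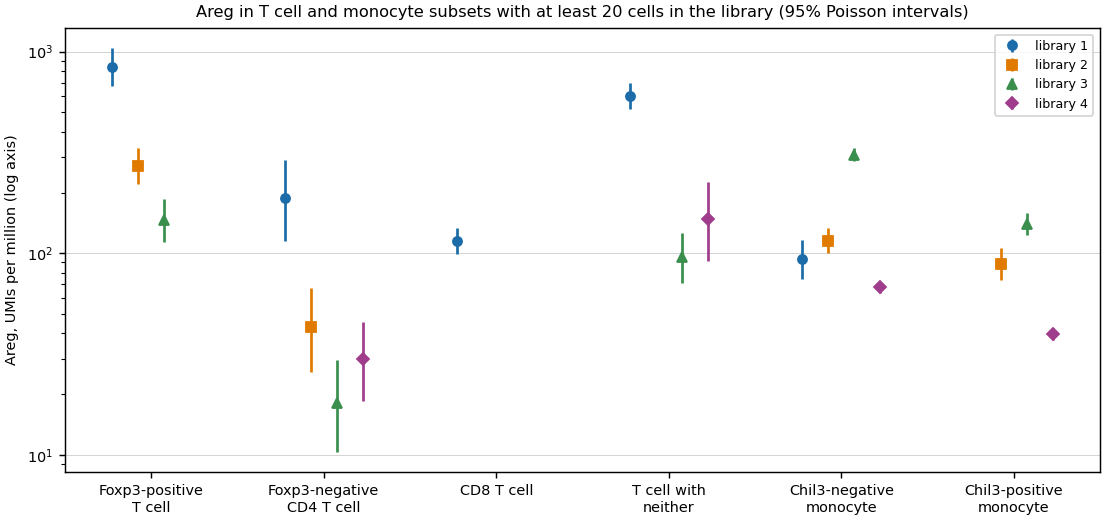
Areg level in CPM (log axis) in subsets of T cells and monocytes by library, for subsets with at least 20 cells in the library, with 95% Poisson intervals. Foxp3-positive T cells lie at 146 to 840.3 CPM and Foxp3-negative CD4 T cells at 18.2 to 188 CPM.

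Fibroblasts were split by Lrrc15, a marker of myofibroblast-like cells in tumours, and by Dpt, a marker of a broad fibroblast type. Ereg was higher in Lrrc15-positive than in Dpt-positive Lrrc15-negative fibroblasts of library 2 (122 against 64.1 CPM), library 3 (162 against 113 CPM) and library 4 (32.1 against 25.7 CPM). Hbegf followed the same order in library 2 (107 against 81.0 CPM) and library 3 (99.0 against 69.2 CPM) and the opposite order in library 4 (35.5 against 45.4 CPM). Egfr was lower in Lrrc15-positive fibroblasts of library 2 (134 against 153 CPM) and library 4 (95.5 against 132 CPM), and in library 3 it stood at 103 against 106 CPM with overlapping intervals. Ereg thus kept its order in the 3 libraries that held both subsets. The 846 fibroblasts with neither gene had the highest pooled Hbegf (147 CPM, against 99.8 CPM in Lrrc15-positive and 62.2 CPM in Dpt-positive cells). Their Ereg (108 CPM) had an interval that overlapped that of Lrrc15-positive cells (109.8 CPM). This subset is set by absent UMIs, so it can hold cells whose Lrrc15 or Dpt RNA was not counted. Its cells held 10990206 UMIs of all genes, against 40165157 in the 1165 Lrrc15-positive cells. These pooled values do not account for the mix of libraries in each subset. In library 1, 155 of 195 fibroblasts were Lrrc15-positive, and their Egfr stood at 43.0 CPM.

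Cycling tumour cells, those with a Mki67 or Top2a UMI, had ligand levels near those of other Epcam- or Cldn4-positive tumour cells. In library 1 Areg stood at 248.6 CPM in cycling and 269 CPM in non-cycling cells, and Hbegf at 680.1 and 712.5 CPM. In library 2 the order was the opposite, with Areg at 444.5 and 403 CPM and Hbegf at 466 and 411 CPM.

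Tumour cells often held more than 1 ligand. After thinning to 1000 UMIs, 17.7% of tumour cells of library 1 held an Areg UMI and 42.9% an Hbegf UMI. Both were found in 9.00% (8.12 to 9.94%), beside 7.57% from the product of both shares. In library 2 both were found in 10.53% (7.22 to 14.7%), beside 6.83%. The product lay below the interval in both libraries, in library 2 by little (6.83% against 7.22%). The product was given no error of its own, and cells are not replicates. In fibroblasts, Ereg and Egfr were found together in 0.837% of cells of library 2, beside a product of 0.689%, and in 0.647% of library 3, beside 1.07%, and both intervals included the product.

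Other genes of the pathway were read from fixed lists, by whether any class reached 50 CPM. Of 33124 genes with at least 1 UMI, 20.3% did, and of the 12385 genes with at least 800 UMIs, 52.7% did. Of 6 other ligands, 2 reached 50 CPM. Epgn, the ligand gene beside Ereg, stood at 140.1 CPM in keratinocyte-like cells and 3.95 CPM in tumour cells. Nrg1, a neuregulin that binds Erbb3, stood at 137 CPM in mature DC and 66.2 CPM in cDC2. Egf itself was highest in mature DC at 22.7 CPM. Nrg3 had 0 UMIs, and the remaining receptor of the family, Erbb4, had 1 UMI in all kept cells.

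Of 4 genes for ligand shedding, 3 reached 50 CPM. Adam17, the main protease for most of these ligands, was highest in neutrophils at 209.9 CPM, with 41.0 CPM in tumour cells and 65.1 CPM in fibroblasts. Adam10, which also cuts Btc, was highest in endothelial cells at 139 CPM. Rhbdf2, an iRhom that brings Adam17 to the surface, stood at 54.3 CPM both in neutrophils and in basophils or mast cells. Rhbdf1, a related iRhom, stood at 35.8 CPM in tumour cells and 35.4 CPM in fibroblasts. Adam17 and Rhbdf2 were thus both lower in tumour cells and fibroblasts than in neutrophils.

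Of 9 genes for signalling next to the receptor, 7 reached 50 CPM. Grb2, the adaptor of activated receptors, was highest in cDC2 at 362 CPM, and Shc1, a further adaptor, in fibroblasts at 51.2 CPM. Grb7, an adaptor of Erbb2, was highest in keratinocyte-like cells at 15.5 CPM and stood at 14.4 CPM in tumour cells. Of 9 negative regulators, 4 reached 50 CPM. Errfi1, which blocks the Egfr kinase, was highest in pericytes or smooth muscle cells at 400.5 CPM, followed by fibroblasts at 380.4 CPM and tumour cells at 263 CPM. Spry1, an inhibitor of the ERK pathway, was highest in tumour cells at 87.2 CPM. Spred1 was highest in mature DC at 261 CPM and Spry2 in NK cells at 136 CPM.

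Of 10 genes that respond to ERK, 8 reached 50 CPM, and their leading classes differed. The tumour class led for 3 of the 10, Dusp6 (163 CPM), Etv4 (51.4 CPM) and Phlda1 (709.6 CPM), and the keratinocyte-like class for Fosl1 (197 CPM, beside 189.8 CPM in tumour cells). Dusp6, the phosphatase of ERK, stood at 14.0 CPM in fibroblasts. Phlda1 stood at 678.7 CPM in fibroblasts. Egr1 and Ier3 were highest in basophils or mast cells, Dusp4 in T cells (116 CPM), Dusp5 in neutrophils (500.1 CPM), Etv5 in macrophages (39.5 CPM) and Spred3 in endothelial cells (14.6 CPM).

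**Figure D5:**
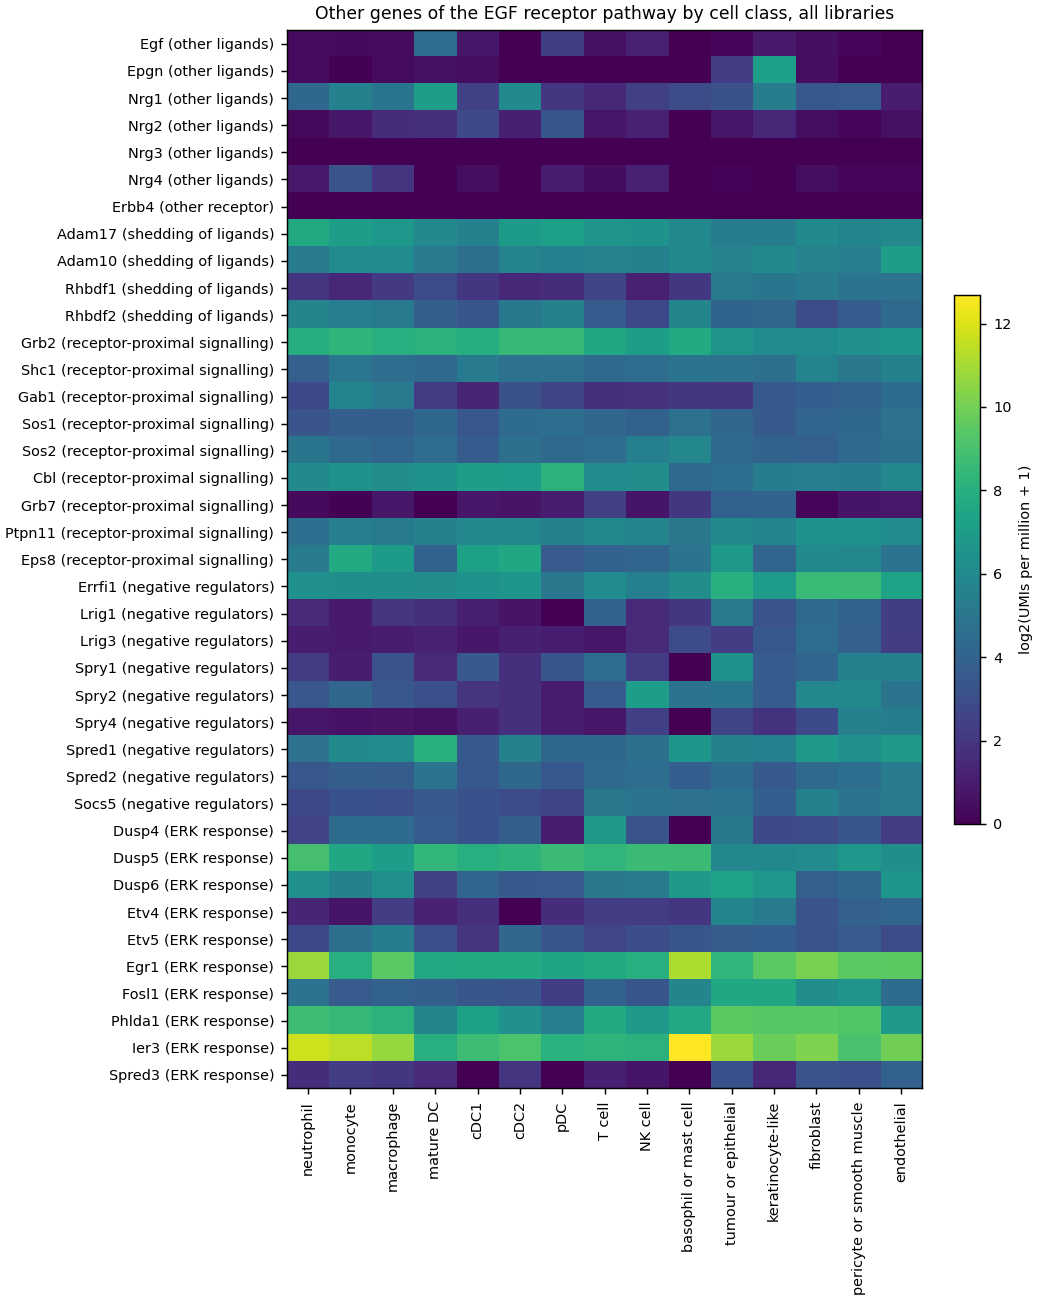
Level of 39 other pathway genes, as log2(CPM + 1) in colour, with genes and their list on the y axis and 15 cell classes over all libraries on the x axis. Nrg1 is highest in mature DC at 137 CPM and Epgn in keratinocyte-like cells at 140.1 CPM. Errfi1 is highest in pericytes or smooth muscle cells at 400.5 CPM, beside 380.4 CPM in fibroblasts.

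The genes with the most similar profile were read over 33 units of class and library with at least 50 cells, among 11901 genes with at least 1000 UMIs. The measure was Pearson's r of log2(CPM + 1), and units share libraries and depth. Egfr was closest to Tsku (r = 0.917), Il33 (0.912) and Ndufa4l2 (0.912). Ereg was closest to Il33 (0.833), Tmem45a (0.832) and Gpc3 (0.830). Both lists held Il33, the gene of an alarmin cytokine, which stood at 443 CPM in fibroblasts. Tgfa was closest to Samd12 (0.937), Arhgef5 (0.926) and Fzd6 (0.920), and Hbegf to Hes1 (0.869), Mex3d (0.834) and Adgrl2 (0.828). Areg had lower values, with Ezr (0.698), Tuba4a (0.673) and Arntl2 (0.664). Erbb2 was closest to Yap1 (0.917), Cttn (0.913) and Rin1 (0.901). Erbb3 was closest to Cdh1 (0.737), Ppif (0.735) and Tuba4a (0.708), and Btc to Rdh10 (0.744), Six4 (0.720) and Gsta4 (0.716).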

How the data were processed

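Cells of 4T1 tumours were profiled by 10x Genomics 3' single-cell RNA sequencing. The authors deposited 1 matrix of whole-number UMI counts, not normalized, for 55450 genes and 33064 barcodes. The authors made it with Cell Ranger, whose version is 3.0.2 in the protocol, 6.1.2 in the matrix header and 2.1.1 in the submitters' processing notes, which name the build mm10. The gene annotation was not given in the sources used here. Each identifier was found in GENCODE vM21.

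Barcodes with at least 300 genes and at most 15% mitochondrial UMIs were kept. Each marker was taken as ln(1 + counts per 10000), divided by its 90th percentile among positive cells and capped at 1, and a class scored the mean over its markers. A barcode went to the best class if at least 3 markers had a UMI and the next class scored at most 0.9 of the best. This rule was set after the cells were seen. It left 3038 barcodes out, 886 of them for a close second class, and 977 more lay just inside that limit. B cells (25 barcodes) were not reported. The class names are therefore not those of the authors. Doublets were kept, with an alternative that removed the 5% of barcodes with the highest Scrublet score per library.

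UMIs were summed over a class and given per 1000000 (CPM). Shares were compared after thinning each cell to 1000 UMIs (seed 1), which left out 1890 cells in all, 601 of them neutrophils, 162 fibroblasts and 49 tumour cells. Subsets were set by a UMI of a single gene. Classes needed at least 50 cells pooled or 20 in a library. The fold of a class pair within a library had an exact interval for a ratio of 2 Poisson counts. The gate, the levels, the thinning and the intervals were tested on simulated data. Simulated cells were drawn from the summed profile of each gated class, without doublets or spread of expression between cells of a class. They are thus no independent check of the gate, and they do not cover UMIs held by few cells. Named genes were the 8 members, the pathway lists and, for each member, the 3 genes of highest correlation. Members and lists were chosen with earlier results of these data known. Python 3.11.15, numpy 2.4.6, scipy 1.17.1, pandas 2.3.3, scanpy 1.11.5, igraph 0.11.9 and matplotlib 3.10.9 were used. No test between treatments was made because no source used here links libraries to samples.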

Additional observations from a re-analysis of the deposited data

Results flagged for a closer look

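The 4 libraries, of unknown treatment and not linked to samples, were compared. This was done for members at 10 CPM or more in classes with at least 20 cells in every library. In 3 of 16 such sets, 1 library lay far from the other 3, by a gap above Dixon's 95% value for 4 values. Chance passes this limit in about 1 of 20 sets. Of 44313 sets of a gene and a class, over the 12385 genes with at least 800 UMIs, 7.06% did so. Areg in macrophages was 119.8 CPM in library 3, against 36.1 CPM in the next library, and 4 of the 210 cells held 50% of its 137 UMIs. Hbegf in cDC1 was 67.8 CPM in library 1, against 7.48 CPM in the next library. Hbegf in T cells was 68.6 CPM in library 1, against 11.03 CPM in the next library. CD8 T cells, 247 of 270 of them in library 1, had 68.6 CPM there. The other subsets of library 1 had 86.9 CPM (Foxp3-positive), 37.6 CPM (Foxp3-negative CD4) and 73.0 CPM (neither), and all subsets with at least 20 cells in libraries 2 to 4 had 3.41 to 21.0 CPM. In library 1, Hbegf in T cells and cDC1 stood at 9.94% and 9.82% of its tumour level, beside tumour markers at 10.3% and 9.28%. The part of free RNA in these values was not tested.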

How the results depend on the processing

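The log2 ratio of each member's leading class to the highest other class was recomputed under 12 alternatives. Of 94 such values 87 kept their direction and 7 turned. Thinning to 1000 UMIs turned Ereg (-0.18, keratinocyte-like cells higher), Hbegf (-0.14, keratinocyte-like cells higher), Btc (-0.47, fibroblasts higher) and Erbb3 (-1.63, keratinocyte-like cells higher). Keratinocyte-like cells then held 8 Ereg, 57 Hbegf and 5 Erbb3 UMIs, and pericytes or smooth muscle cells 1 Btc UMI. For each of these members the intervals of both classes overlapped after thinning. Equal weight for each library turned Hbegf (-0.089, keratinocyte-like cells higher). Keratinocyte-like cells were in library 1 only, and within that library tumour cells were higher (689.8 against 603.3 CPM). Leaving out library 3 turned Btc (-2.74, tumour cells higher; the range without 1 library was -2.74 to 1.07), and Leiden clusters in place of gates turned Ereg (-1.30, a pericyte or smooth muscle cluster higher). Thinning counts fewer UMIs, and the cause of the changes was not tested. Areg, Tgfa, Egfr and Erbb2 kept their direction under every alternative that gave a value. Without library 1 there are no keratinocyte-like cells, so Areg and Erbb2 had no value there.

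The number of members with a leading class at least 2-fold above the next was 2, and became 1 with at least 500 genes, with at most 10% mitochondrial UMIs and with the highest doublet scores removed, where Ereg fell below the limit. It stayed 2 under the stricter gate and without library 2 (both Btc and Egfr) and after thinning (Egfr and Erbb3), with Ereg lost each time, and was 3 with a mean over cells (Ereg, Egfr and Erbb2) and with Leiden clusters (Ereg, Btc and Egfr). After thinning, Erbb3 rested on 5 UMIs in keratinocyte-like cells. Egfr passed in every case, with a log2 lead of 1.20 with Leiden clusters and 1.59 after thinning, against 2.12. Leaving out 1 library gave 1 to 5, the latter without library 1 and its keratinocyte-like cells. No share over all genes was computed under the alternatives. The log2 ratio of Egfr in fibroblasts to tumour cells was 6.62, was 5.27 with equal weight for each library, and ranged from 4.73 (without library 1) to 7.25 (without library 2) when 1 library was left out.

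The Leiden clustering gave 29 clusters, and 93.5% of the barcodes with both a gate and a cluster name had the same class in both. With ungated barcodes counted too, 56.25% of the 272 cells of the pericyte or smooth muscle cluster were gated to that class. By that measure the named clusters ranged from 27.4% (a monocyte cluster) to 99.9% (a fibroblast cluster). Shares before thinning depend on depth: Areg was found in 65.8% of tumour cells, in 50% with at least 2 UMIs and in 17.9% after thinning. The ratio of observed Areg and Hbegf pairs to the product in library 1 tumour cells was 1.06 before thinning and 1.19 after.
No paired analysis was possible because no source used here links the libraries to the samples.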

Other observations

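NK cells of libraries 1 and 4 held 5 Tgfa UMIs each, at 13.1 CPM (4.25 to 30.5) and 5.70 CPM (1.85 to 13.3), and NK cells of library 3 held 0. cDC2 of library 2 had Areg at 73.4 CPM, against 33.2 CPM in library 3 and 6.88 CPM in library 4. Macrophages with Arg1 and Mrc1 UMIs and no Cd163 UMI had Areg at 47.7 CPM in library 1, 33.4 CPM in library 2, 229 CPM in library 3 and 61.0 CPM in library 4. Cd163-positive macrophages had Areg at 29.3, 24.2, 63.8 and 16.2 CPM in the same order. Hbegf in these Cd163-positive macrophages was 44.0 CPM in library 1, 111 CPM in library 2, 122 CPM in library 3 and 39.0 CPM in library 4.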
